A study of Microcebus murinus with 18 samples.

Results

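Transcripts of tau (MAPT) and of 9 genes of its kinases were followed in the temporal cortex of grey mouse lemurs (Microcebus murinus), a small primate. The members were MAPT, the glycogen synthase kinases GSK3A and GSK3B, the cyclin-dependent kinase CDK5 with its activator CDK5R1 (p35), the microtubule affinity-regulating kinases MARK1, MARK2, MARK3 and MARK4, and DYRK1A. All probe sets of the human HG-U133 Plus 2.0 array annotated to 1 of these symbols were taken, which gave 32 of 54613 probe sets that are not controls, for 10 of 19775 genes named on the array. RNA of 18 captive-bred animals, 1 array each, fell into 3 groups. Both AD-like animals were old females (F1 and F2) with amyloid plaques in the brain and an atrophied cortex. The 10 old animals were healthy (7 females and 3 males), and the 6 young adults comprised 4 females and 2 males.

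Tau binds and stabilises microtubules in the axons of neurons. Kinases that phosphorylate it in or near its microtubule-binding repeats loosen this binding, and highly phosphorylated tau builds the neurofibrillary tangles of Alzheimer's disease. GSK3 and CDK5 act on serines and threonines followed by proline, MARK kinases on the repeats, and DYRK1A primes sites for GSK3. Kinase activity is set largely by phosphorylation, localization and partner proteins, none of which an array of transcripts measures.

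Signals are linear values that the authors scaled to the same trimmed mean on every array. A probe set was kept if its signal was at least 150 on at least 3 arrays, which held for 14567 probe sets and for 22 of the 32 members: 5 of 6 for MAPT, 2 of 2 for GSK3A, 3 of 5 for GSK3B, 1 of 1 for CDK5, 1 of 2 for CDK5R1, 2 of 4 for MARK1, 2 of 2 for MARK2, 1 of 3 for MARK3, 1 of 2 for MARK4 and 4 of 5 for DYRK1A. The 10 members that were not kept had signals between 3.48 and 270.4 and were tested only in an alternative fit with no filter. The leading probe set of a gene is the one with the highest mean signal. Human probes met lemur RNA, so signals are compared between animals for the same probe set only. The cortex is a mixed tissue, in which fewer cells of a type and less RNA per cell cannot be told apart.

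The arrays of AD-like F2, old M1, old M2 and young adult M2 carried no poly-A control RNA (mean of 4 control probe sets between 18.4 and 42.0), whereas the other 14 arrays did (between 188 and 2191). This set holds 3 of the 5 males, so set and sex overlap. Each AD-like animal thus lay in another set of arrays, and results are given for each singly. Of 10 neuronal markers 9 were kept (ENO2 was not), with a summed signal of 75972 in AD-like F1, 35972 in AD-like F2, between 43534 and 93692 in old animals and between 30203 and 87446 in young adults. Of the astrocyte markers 5 of 7 were kept, without GFAP and S100B, and summed to 9654 in AD-like F1, 8277 in AD-like F2, between 6410 and 15833 in old and between 4897 and 19079 in young adult animals. The 6 kept oligodendrocyte markers summed to 1233 in AD-like F1, 1169 in AD-like F2, between 791 and 1500 in old and between 698 and 1613 in young adult animals. Endothelial markers were kept for 2 of 4 (not CLDN5 and VWF), blood markers for 1 of 3 (HBB) and microglial markers for 0 of 6. A sign of RNA length, the beta-actin signal near the 3' end over that near the 5' end (log2), ranged from -2.50 to -0.46 in AD-like, from -3.27 to -0.40 in old and from -3.06 to -1.55 in young adult animals. The parts that these differences between arrays play in the results were not tested, other than through the values given below.

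No member probe set differed between groups after adjustment over all kept probe sets. Between AD-like and old animals, 2 members were lower at an unadjusted p under 0.05 (GSK3B 209945_s_at and MARK4 55065_at) and 0 higher, where 3.62% of all kept probe sets were lower and 1.22% higher. Between AD-like and young adult animals 2 members were lower (MARK4 55065_at and MARK2 211082_x_at, background 3.21%) and 0 higher (background 1.13%). Between old and young adult animals 1 member was higher (GSK3B 209945_s_at, background 3.49%) and 1 lower (DYRK1A 239308_at, background 2.42%). After Benjamini-Hochberg adjustment in limma 0 of 22 members passed a threshold of 0.05 in any of the 3 comparisons, beside 0.00686% of all probe sets (1 probe set) for AD-like against old animals and 0 for the others. The methods' t-test on linear signals also left 0 members after adjustment.

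The median difference of the 22 members was -0.25 on the log2(signal + 16) scale between AD-like and old animals, beside -0.02 over all kept probe sets, and 16 of 22 were negative. Under quantile normalization that median was -0.06, with 9 of 22 positive. It was -0.23 between AD-like and young adult animals, beside 0.01 over all, and 16 of 22 were again negative. AD-like animals serve in both of these comparisons. Between old and young adult animals it was 0.11, beside 0.03 over all, with 15 of 22 positive, and it turned to -0.03 with 10 of 22 positive under quantile normalization. The 95% intervals were wide, as the plot of differences by probe set shows, so moderate changes in either direction could not be seen for most members.

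**Figure D1:**
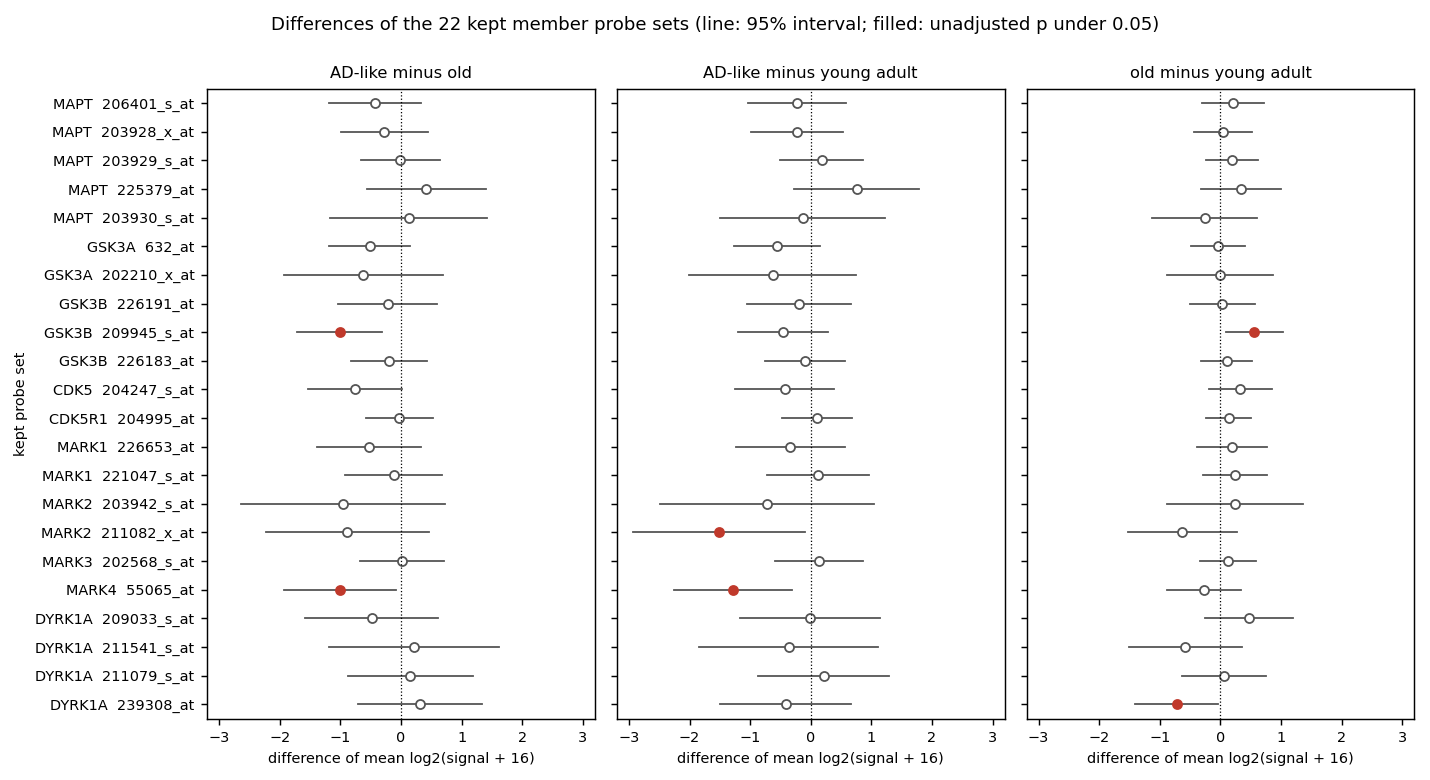
Difference of mean log2(signal + 16) for the 22 kept member probe sets (rows) in the 3 comparisons (panels), with the 95% interval from limma as a line. Filled points mark an unadjusted p under 0.05, which held for 2 members between AD-like and old animals (GSK3B 209945_s_at, MARK4 55065_at), 2 between AD-like and young adult animals and 2 between old and young adult animals.

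The leading probe set of MAPT, 206401_s_at, separated the AD-like animals from each other more than it separated the groups. It gave 2469 in AD-like F1 and 981 in AD-like F2. Old animals ranged from 1441 to 3319 with a median of 2132, and young adults from 1252 to 2361 with a median of 1843. AD-like F1 exceeded 7 of 10 old animals and all 6 young adults, whereas AD-like F2 had the lowest signal of the 18 arrays. Against the mean log2 value of old animals AD-like F1 stood 0.23 higher and AD-like F2 stood at -1.09. The difference between AD-like and old animals was -0.43 ± 0.37 (log2, SE; limma adjusted p = 0.972, 95% interval from -1.19 to 0.33), and it was -1.09 without AD-like F1 and 0.23 without AD-like F2. Within the 14 arrays with poly-A control RNA it was 0.33, and within the 4 without it -1.50, where old M1 (3319) and old M2 (2353) lay above AD-like F2. Means were 1725 ± 1052 in AD-like (SD, n = 2), 2182 ± 610 in old (n = 10) and 1861 ± 385 in young adult animals (n = 6). Old animals were thus 0.21 ± 0.24 above young adults (log2, SE; adjusted p = 0.917), a difference that was -0.06 under quantile normalization. The neuronal marker sum was also low in AD-like F2, below all 10 old animals but above the lowest young adult (30203). This sum of linear signals is weighted towards its brightest markers, and its part in the MAPT value was not tested.

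**Figure D2:**
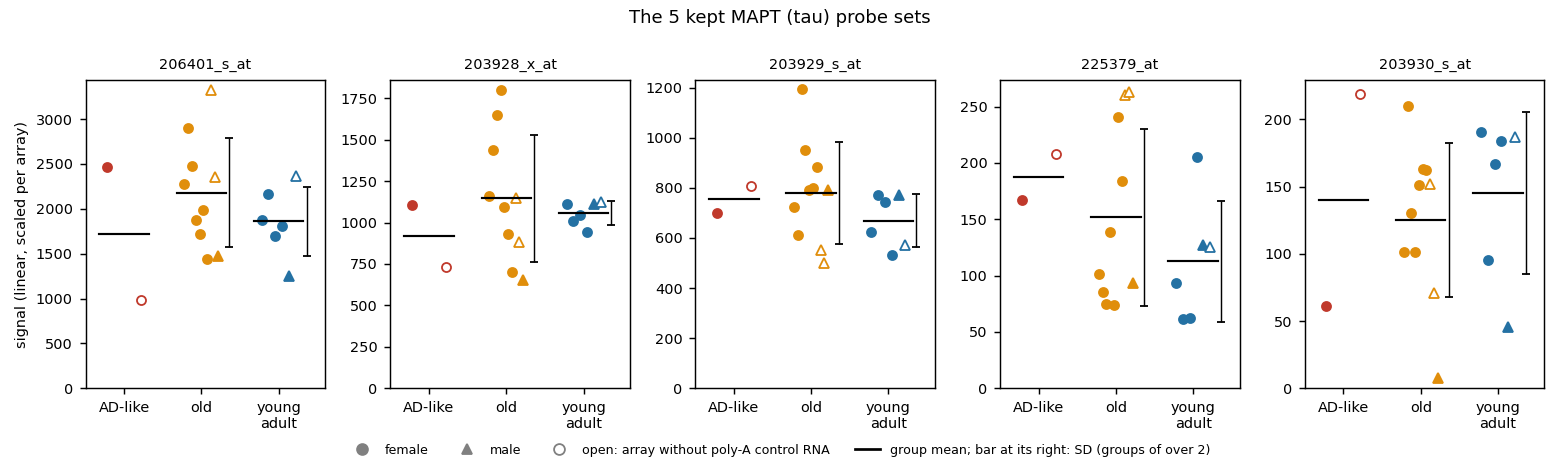
Signal of the 5 kept MAPT probe sets (panels, linear axes from 0) in AD-like, old and young adult animals, 1 point per animal, with the group mean as a line and the SD of old and young adult animals as a bar. In 206401_s_at AD-like F2 (981) lies below all other arrays and AD-like F1 (2469) among the higher ones. In the 4 other probe sets the animals take other orders.

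The other MAPT probe sets did not repeat the order of animals seen with 206401_s_at. Their correlations with it over the 18 arrays, given as a description of arrays that share depth and set, were 0.54 for 203928_x_at, -0.34 for 203929_s_at, -0.01 for 225379_at and 0.15 for 203930_s_at. Probe set 203929_s_at gave 701 in AD-like F1 and 807 in AD-like F2, against a median of 791 in old animals (501 to 1195) and 683 in young adults (532 to 773). Here AD-like F2 was above AD-like F1 and above all 6 young adults. Probe set 203928_x_at, whose suffix marks probes that may also bind other sequences, gave 1107 in AD-like F1 and 730 in AD-like F2, against 651 to 1802 in old and 945 to 1121 in young adult animals. The signals of 225379_at and 203930_s_at reached 150 on 7 and 10 of the 18 arrays. The difference between AD-like and old animals ran from -0.43 to 0.42 over the 5 probe sets (limma adjusted p between 0.972 and 0.999), and that between old and young adult animals from -0.26 to 0.34.

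GSK3B, a main proline-directed tau kinase, held the member probe set with the smallest p. Probe set 209945_s_at gave 873 in AD-like F1 and 456 in AD-like F2. Old animals ranged from 940 to 1656 with a median of 1340, and young adults from 582 to 1377 with a median of 890. Both AD-like animals lay below all 10 old animals, the only 1 of 22 members to do so, where 1.63% of all kept probe sets had this pattern. Young adults overlapped with both other groups. The difference between AD-like and old animals was -1.01 ± 0.34 (log2, SE; limma p = 0.00718, adjusted p = 0.798). It was -1.47 without AD-like F1 and -0.56 without AD-like F2 (unadjusted p = 0.226), and -0.60 within the 14 arrays with poly-A control RNA (unadjusted p = 0.166). In females alone it was -1.12. All 10 old animals were above the median of the young adults, and the difference between old and young adult animals was 0.56 ± 0.23 (p = 0.0231, adjusted p = 0.836). In females alone this was 0.40 (unadjusted p = 0.108), and without young adult M1 or M2 it was 0.46 or 0.44 (unadjusted p = 0.0636 and 0.0726).

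The other GSK3B probe sets moved less. The leading one, 226191_at, gave 6108 in AD-like F1 and 4590 in AD-like F2, against 3646 to 10600 in old animals (median 6046) and 3664 to 8984 in young adults (median 6205). Its difference between AD-like and old animals was -0.22 ± 0.39 (log2, SE; adjusted p = 0.977), which became 0.13 under quantile normalization, and between old and young adult animals it was 0.03 ± 0.26, which became -0.31. Probe set 226183_at gave 751 in AD-like F1 and 701 in AD-like F2, against 561 to 1051 in old and 506 to 1046 in young adult animals, a difference of -0.20 between AD-like and old and of 0.10 between old and young adult animals. Within an array, the log2 ratio of 209945_s_at to 226191_at was -2.81 and -3.33 in the AD-like animals, -2.26 ± 0.40 in old animals (SD, n = 10) and -2.79 ± 0.23 in young adults (n = 6). Old F1 (-2.999) overlapped with the AD-like animals, whose ratios otherwise lay below those of old animals. The log2 ratio to 226183_at was 0.22 and -0.62 in the AD-like animals, 0.63 ± 0.24 in old animals and 0.17 ± 0.43 in young adults. The 3 probe sets of this gene thus gave unequal differences between the groups, and the difference among them was not tested.

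**Figure D3:**
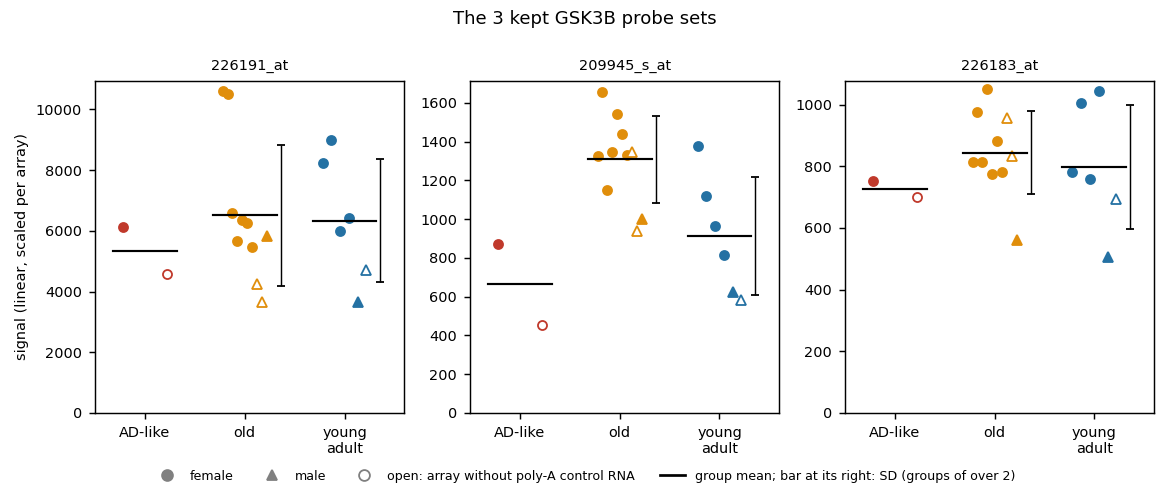
Signal of the 3 kept GSK3B probe sets (panels, linear axes from 0) in AD-like, old and young adult animals, 1 point per animal, with the group mean as a line and the SD of old and young adult animals as a bar. In 209945_s_at both AD-like animals (873 and 456) lie below the lowest old animal (940), which is not so in 226191_at or 226183_at.

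GSK3A, the other form of this kinase, was at the low end of the range in both AD-like animals. Its leading probe set 632_at gave 867 in AD-like F1 and 813 in AD-like F2, against 852 to 1760 in old animals (median 1220) and 867 to 1880 in young adults (median 1236). AD-like F1 was below 9 and AD-like F2 below 10 of the 10 old animals. The difference was -0.52 ± 0.32 against old and -0.56 ± 0.34 against young adult animals (log2, SE; limma adjusted p = 0.972 and 1.00). Within the 14 arrays with poly-A control RNA the difference from old animals was -0.57, and within the 4 without it -0.18. Old and young adult animals had similar means of 1238 ± 293 (SD, n = 10) and 1281 ± 355 (n = 6), a difference of -0.04 with a 95% interval from -0.48 to 0.41. The second probe set, 202210_x_at, gave 129 and 216 in AD-like F1 and F2, against medians of 347 in old and 295 in young adult animals, with wide overlap.

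CDK5 was low in both AD-like animals, while its activator CDK5R1 was at the level of the other groups. CDK5 204247_s_at gave 320 in AD-like F1 and 285 in AD-like F2. Old animals ranged from 278 to 768 with a median of 567, and young adults from 252 to 676 with a median of 422. Each AD-like animal was below 9 of 10 old animals. The exception was old M3 (278), and the old females all gave 493.2 or more. The other old males, M1 and M2, gave 587 and 404. The difference from old animals was -0.76 ± 0.37 (log2, SE; limma p = 0.0561, adjusted p = 0.972). It was -0.70 within the 14 arrays with poly-A control RNA and -0.74 within the other 4, and -0.91 in females alone (unadjusted p = 0.00718, adjusted p = 0.288). Against young adults it was -0.43 ± 0.40, and old animals stood 0.33 ± 0.25 above young adults. Young adult M1 (252) and M2 (277) were the lowest of their group, followed by young adult F3 (339), a female.

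CDK5R1 204995_at varied least of the leading probe sets, with a coefficient of variation of 14.5% over the 18 arrays. Its highest signal was 1.86-fold the lowest. The medians over all kept probe sets were 41.4% and 5.99-fold. Most of these were dimmer, with a median mean signal of 183 beside 4441 for 204995_at, and spread was not compared at like signals. CDK5R1 204995_at gave 4655 in AD-like F1 and 4290 in AD-like F2, against 3961 to 6543 in old animals (median 4392) and 3515 to 4818 in young adults (median 4056). The difference was -0.03 ± 0.26 between AD-like and old animals, with a 95% interval from -0.57 to 0.52, and 0.29 under quantile normalization. Between old and young adult animals it was 0.13 ± 0.18 (95% interval from -0.23 to 0.50), and -0.19 under quantile normalization. Old F1 (6543) stood above all other arrays.

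**Figure D4:**
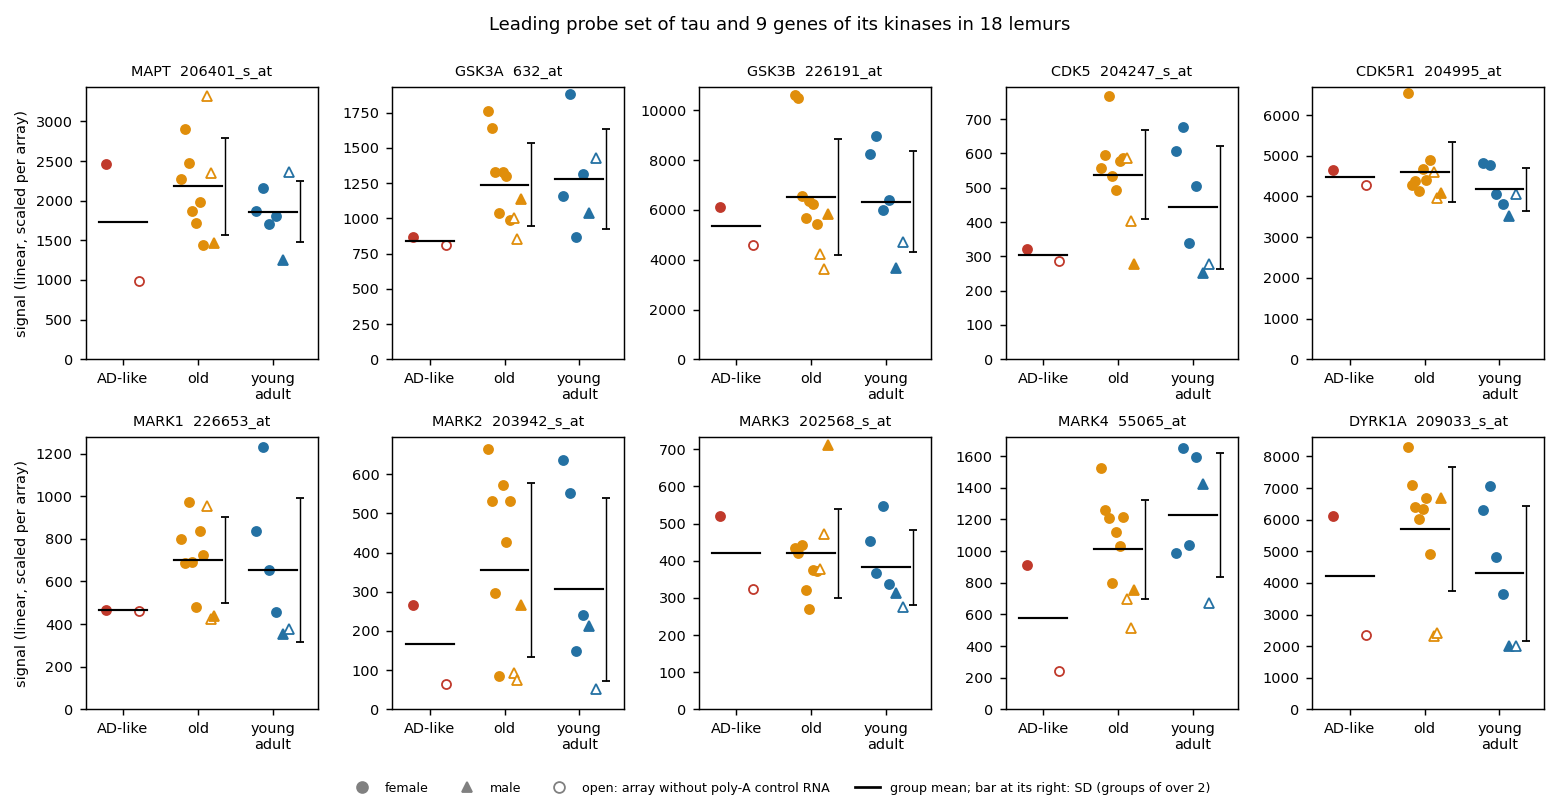
Signal of the leading probe set of each of the 10 genes (panels, linear axes from 0) in AD-like, old and young adult animals, 1 point per animal (circles females, triangles males, open symbols the 4 arrays without poly-A control RNA), with the group mean as a line and the SD of old and young adult animals as a bar. The AD-like animals lie close together for CDK5 (320 and 285), GSK3A (867 and 813) and MARK1 (467 and 462), and far apart for MAPT, MARK4 and DYRK1A.

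The MARK kinases differed among themselves. MARK1 226653_at gave nearly the same signal in both AD-like animals, 467 in F1 and 462 in F2, each below 8 of 10 old animals (426 to 971, median 709). Young adults ranged from 356 to 1233 with a median of 557, around the AD-like values. The difference between AD-like and old animals was -0.52 ± 0.41 (log2, SE; limma adjusted p = 0.972), and it was -0.54 within the 14 arrays with poly-A control RNA and -0.45 within the other 4. MARK1 221047_s_at differed by -0.12 between AD-like and old animals. MARK3 202568_s_at gave 519 in AD-like F1, above 9 of 10 old animals, and 324 in AD-like F2, below 8 of 10. Old animals ranged from 270 to 711 (median 399) and young adults from 276 to 547 (median 352). The difference between AD-like and old animals, 0.01 ± 0.33, therefore averages opposite positions, and it was -0.01 with each array centred on its median.

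MARK4 was the member with an unadjusted p under 0.05 in AD-like animals against both other groups, through its only kept probe set, 55065_at. This gave 912 in AD-like F1 and 243 in AD-like F2, the lowest signal of the 18 arrays. Old animals ranged from 514 to 1526 (median 1077) and young adults from 671 to 1651 (median 1231). The difference was -1.002 ± 0.44 against old animals (log2, SE; limma p = 0.0348, adjusted p = 0.972) and -1.28 ± 0.47 against young adults (p = 0.0127, adjusted p = 1.00). Both values for 55065_at depended on AD-like F2, without which they were -0.08 and -0.35 (unadjusted p = 0.881 and 0.525). Without AD-like F1 they were -1.92 and -2.20. Within the 14 arrays with poly-A control RNA they were -0.25 and -0.51, and within the 4 without it -1.25 and -1.41. By the methods' t-test on linear signals neither difference reached an unadjusted p of 0.05 (0.122 and 0.0968). The other probe set of this gene, 221560_at, was dim, with 43.4 in AD-like F1 and 58.6 in AD-like F2, against 67.2 to 270.4 in old animals (median 92.1) and 64.9 to 152 in young adults (median 100.4). It was not kept and entered only the alternative fit with no filter. The share of all probe sets with both AD-like animals below all others was not counted, so its order of animals is a description only.

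MARK2 signals were low on many arrays. Probe set 211082_x_at gave 63.7 in AD-like F1 and 12.8 in AD-like F2, against 4.54 to 218 in old animals (median 89.8) and 76.5 to 166 in young adults (median 133.3). Both AD-like animals were below all 6 young adults, as in 2.97% of all kept probe sets, but not below all old animals. The difference from young adults was -1.52 ± 0.68 (limma p = 0.0382, adjusted p = 1.00), -0.78 without AD-like F2 (unadjusted p = 0.392) and -2.25 without AD-like F1. It was -1.22 with the set of arrays as a block (unadjusted p = 0.0788), -0.87 within the 14 arrays with poly-A control RNA (0.351) and -0.82 when the beta-actin ratio entered the model (0.107). Of the 18 arrays 3 gave a 211082_x_at signal of 150 or more, those of old F5 and young adult F2 and M1. This probe set thus passed the filter largely through the group in which it was high. Its difference from young adults is therefore a description only. The leading probe set, 203942_s_at, gave 266 in AD-like F1 and 64.9 in AD-like F2, against 75.3 to 664 in old and 51.2 to 636 in young adult animals. Its differences were -0.96 ± 0.81 between AD-like and old and 0.24 ± 0.54 between old and young adult animals.

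DYRK1A is a kinase encoded on human chromosome 21 and raised in dose in Down syndrome. Its leading probe set 209033_s_at followed the set of arrays more than the group, but set and sex overlap. The probe set gave 6127 in AD-like F1 and 2338 in AD-like F2, against 2320 to 8305 in old animals (median 6356) and 2015 to 7073 in young adults (median 4219). The 4 arrays without poly-A control RNA gave 2015 to 2417 and the other 14 gave 2018 to 8305. Of these, only young adult M1 (2018) was in the range of the 4, and the next, young adult F4, gave 3634. Like old M1, old M2 and young adult M2 among the 4, young adult M1 is a male. Old M3, also a male, gave 6696. Within a set, AD-like F2 was at the level of old M1 and M2 (difference -0.02) and AD-like F1 at that of the other old animals (-0.08), whereas over all arrays the difference was -0.49 ± 0.53 (log2, SE; limma adjusted p = 0.972). Old animals stood 0.47 ± 0.35 above young adults (adjusted p = 0.886). DYRK1A 239308_at went the other way, with 111 in AD-like F1, 142 in AD-like F2, 13.6 to 176 in old animals (median 118) and 108 to 296 in young adults (median 164), a difference between old and young adult animals of -0.72 ± 0.33 (p = 0.0385, adjusted p = 0.836). Its signal reached 150 on 4 of the 18 arrays, those of old M2 and young adult F4, M1 and M2. The probe set thus passed the filter largely through the group in which it was high. The young adult males M1 (296) and M2 (241) were the highest of the 18 arrays, and the difference was -0.58 without M1 and -0.63 without M2 (unadjusted p = 0.106 and 0.0858). In females alone it was also -0.63 (unadjusted p = 0.123). Without old F2, old F7 or young adult F4 it was -0.68, -0.71 or -0.70 (unadjusted p = 0.0593, 0.0509 and 0.0624). The other DYRK1A probe sets, 211541_s_at and 211079_s_at, differed by 0.21 and 0.15 between AD-like and old animals.

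With the set of arrays as a term beside the group, 3 of 22 members (13.6%) were lower on the 4 arrays without poly-A control RNA at an adjusted p under 0.05 and 0 higher, beside 15.7% of all kept probe sets in either direction and 8.78% lower. These were DYRK1A 209033_s_at (-1.34, limma adjusted p = 0.00457), MARK2 203942_s_at (-2.01, adjusted p = 0.00593) and MARK4 55065_at (-1.04, adjusted p = 0.00841). MARK2 203942_s_at gave 51.2 to 93.5 on the 4 arrays and 84.3 to 664 on the other 14, and MARK4 55065_at gave 243 to 695 and 754 to 1651. With sex also in the model 2.41% of all probe sets passed, and of the members 1, MAPT 203930_s_at (1.87, adjusted p = 0.0124), while the set terms were -0.96 for DYRK1A 209033_s_at, -1.65 for MARK2 203942_s_at and -1.03 for MARK4 55065_at (adjusted p = 0.110, 0.113 and 0.0844). The set term for MAPT 206401_s_at was 0.18 (adjusted p = 0.682) and for CDK5 -0.28 (adjusted p = 0.498).

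**Figure D5:**
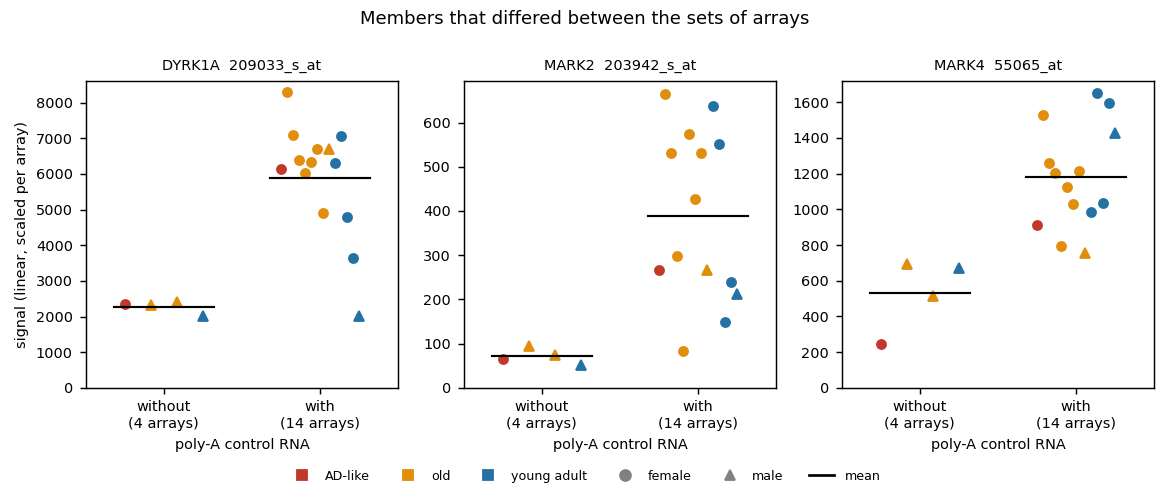
Signal of DYRK1A 209033_s_at, MARK2 203942_s_at and MARK4 55065_at (panels, linear axes from 0) on the 4 arrays without and the 14 with poly-A control RNA, 1 point per animal (colours the groups, circles females, triangles males), with the mean of each set as a line. The sets do not overlap for MARK4 (243 to 695 and 754 to 1651), and overlap for DYRK1A only through young adult M1 (2018) and for MARK2 only through old F4 (84.3).

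The difference between old and young adult animals was also compared between the sexes. Of 22 members 1 had an unadjusted p under 0.05, beside 4.85% of all kept probe sets, and 0 passed after adjustment, as over all probe sets. This was MARK3 202568_s_at, with an old minus young adult difference of -0.17 in females and 0.74 in males, which differ by -0.91 ± 0.42 (log2, SE; limma p = 0.0429, adjusted p = 0.981). Old males gave 378, 472 and 711 and young adult males 313 and 276. Old females ranged from 270 to 442 and young adult females from 338 to 547. Without old M3 (711) the difference was -0.67 (unadjusted p = 0.118), and without young adult M2 (276) it was -0.82 (unadjusted p = 0.12). Leaving out old F4, F5, F6, F7 or M2 or young adult F1, F3 or M1 also brought the unadjusted p to between 0.052 and 0.0823.

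The patterns of MAPT and GSK3B over the 18 arrays were set against the leading probe sets of all 8660 genes with a kept probe set, as a description in which arrays share group, sex and set. Most like MAPT 206401_s_at were NFIC, a nuclear factor I transcription factor (r = 0.81), PKNOX2, a homeobox protein (0.80), and TTLL1, a subunit of a tubulin polyglutamylase (0.77). Without AD-like F2 and old M1, the arrays at the ends of the MAPT range, these were 0.63, 0.68 and 0.60. Most like GSK3B 226191_at were ANKRD17, an ankyrin repeat protein (0.96), BIRC6, an inhibitor of apoptosis (0.93), and SPTAN1, the non-erythroid alpha spectrin (0.92). Without old F1 and old F2 these were 0.95, 0.90 and 0.87. Within the 14 arrays with poly-A control RNA, ANKRD17 kept an r of 0.97 with GSK3B and PKNOX2 one of 0.76 with MAPT.

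Other genes that act on tau were counted by their leading kept probe set. Of 32 further tau kinases 25 were measured, of which 0 were lower and 0 higher between AD-like and old animals at an unadjusted p under 0.05 (background over 8660 genes 3.83% and 1.14%). Their median difference was -0.27, beside -0.05 over all genes, and 18 were negative. TTBK1, a tau tubulin kinase of neurons, gave 394 in AD-like F1 and 141 in AD-like F2, against 438 ± 87.2 in old animals (SD, n = 10), a difference of -0.81 ± 0.42 (log2, SE; limma adjusted p = 0.972). Between AD-like and young adult animals 1 was lower (background 3.29%) and 0 higher (1.09%). This was DYRK1B, a relative of DYRK1A, with 189 in AD-like F1, 30.9 in AD-like F2 and 224 ± 52.6 in young adults (SD, n = 6), a difference of -1.27 (adjusted p = 1.00). Between old and young adult animals 1 was higher (background 3.57%) and 1 lower (2.26%). NUAK1, which phosphorylates tau in its repeats, averaged 3954 ± 938 in old and 2619 ± 1216 in young adult animals (difference 0.72, adjusted p = 0.836), and DYRK1B averaged 110.1 ± 57.8 in old and 224 ± 52.6 in young adult animals (difference -1.10, adjusted p = 0.836).

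Of 27 phosphatases of tau and their regulators 24 were measured. Between AD-like and old animals 1 was lower (background 3.83%) and 0 higher (1.14%), and the median was -0.32 beside -0.05 over all genes. PPP2R1A, a scaffold subunit of protein phosphatase 2A, the main tau phosphatase of brain, gave 411 in AD-like F1 and 76.9 in AD-like F2, against 455 ± 224 in old (SD, n = 10) and 495 ± 80.5 in young adult animals (n = 6). Its differences were -1.09 ± 0.51 and -1.34 ± 0.53 (log2, SE; limma adjusted p = 0.972 and 1.00), and AD-like F1 lay near the mean of old animals. Between AD-like and young adult animals 20 of 24 were negative, with a median of -0.18 beside 0.005 over all genes. Of these genes 1 was lower, PPP2R1A (background 3.29%), and 0 higher (1.09%). PPP3CB, a catalytic subunit of calcineurin, averaged 4604 ± 846 in old and 3436 ± 1033 in young adult animals (difference 0.45, adjusted p = 0.836), and 0 of 24 reached an unadjusted p of 0.05 in that comparison.

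Of 19 regulators of the member kinases 10 were measured, and 1 was lower between AD-like and old animals (background 3.83%). PDPK1, a kinase upstream of AKT, which inhibits GSK3, gave 612 in AD-like F1 and 285 in AD-like F2, against 720 ± 185 in old animals (SD, n = 10), a difference of -0.72 ± 0.34 (log2, SE; limma adjusted p = 0.972). CAPN2, the catalytic subunit of m-calpain, a protease of the family that cleaves p35, gave 76.5 in AD-like F1 and 83.7 in AD-like F2, against 158 ± 42.0 in old and 110.4 ± 57.2 in young adult animals, a difference of -0.82 ± 0.54 from old animals (adjusted p = 0.972). Of 12 other microtubule-associated proteins 11 were measured, and of 14 chaperones and ligases that act on tau 8. None of these 19 genes reached an unadjusted p of 0.05 in any of the 3 comparisons. MAP2, the dendritic relative of tau, gave 1347 in AD-like F1 and 666 in AD-like F2, against 1094 ± 238 in old and 886 ± 332 in young adult animals. MAP6, which stabilises microtubules against cold, gave 1521 in AD-like F1 and 1159 in AD-like F2, against 986 ± 147 in old animals, so that both lay above the mean of old animals. MAPRE3, which binds the growing ends of microtubules, gave 323 in AD-like F1 and 101 in AD-like F2, against 315 ± 147 in old animals. MAP1B gave 18921 in AD-like F1 and 8058 in AD-like F2, against 17804 ± 5759 in old animals.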

How the data were processed

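Right temporal cortex RNA of 18 lemurs was hybridized to human arrays, 1 per animal. The authors deposited linear intensity values, made with GCOS 1.2 per the labels, whose mean after trimming 2% at each end is the same on every array. No replicate was pooled, and animals are separate individuals. Detection calls were not used here. The number of arrays limits the precision, and 2 AD-like animals were assumed to vary like the other groups. Probe sets were named through GEO's platform annotation. Of 14567 kept probe sets 12435 had 1 symbol, 576 several and 1556 none. Arrays correlated between 0.613 and 0.89 (Spearman), and 0 pairs were identical.

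Signals were transformed to log2(signal + 16), which understates changes of low signals, and fitted with limma 3.58.1 in R 4.3.3 (lmFit and eBayes, all 18 arrays, a model of 3 groups), with Benjamini-Hochberg adjustment over the kept probe sets. Age by sex was fitted on the old and young adult arrays. The script was tested on simulated data. Other steps used Python 3.11.15 with pandas 2.3.3 and scipy 1.17.1. Members and lists were chosen with earlier results of these data known. Leading probe sets and members with an unadjusted p under 0.05 are named, and up to 3 genes of each other list with the smallest p. Not every gene named by this rule is printed, and the values beside single arrays were chosen after they were seen. Alternatives covered the offset, normalization, filter, sex, label number, set of arrays, RNA ratios, array weights, the samples fitted, the methods' t-test and leaving out each animal. A fit with set and sex together was added after the data were seen. SAM, which the methods also name, was not run.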

Additional observations from a re-analysis of the deposited data

Results flagged for a closer look

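Of 26 groups of old or young adult animals examined over 13 probe sets, 2 held an animal far from the others, where chance gives about 5%. MARK3 202568_s_at was 711.1 in old M3, with the next old animal at 472.1. CDK5R1 204995_at was 6543 in old F1, with the next at 4891. The MARK3 difference between old and young adult animals also differed between the sexes, by -0.9098 (log2, females minus males; limma adjusted p = 0.981). Old M3 is 1 of the 3 old males in that comparison.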

How the results depend on the processing

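With 2 AD-like animals, low signals near 150 and 4 arrays in a set of their own, only large changes could be seen. Under every alternative 0 members passed after adjustment. Counts at an unadjusted p under 0.05 moved as follows. For the 3 comparisons of groups the share of all probe sets tested is given in brackets. Old against young adult animals had 2 (5.91%). The count became 1 with an offset of 1 (5.65%), a filter of 300 (7.26%) or only arrays with poly-A control RNA (7.01%). It was also 1 with the GAPDH ratio (6.27%) or array weights (5.22%), and 0 in females only (4.63%). With the set of arrays as a block (8.51%), the beta-actin ratio (10.8%), or set and sex (8.68%) it was 3. AD-like against old animals had 2 (4.84%). The count became 4 with no filter (5.74%). It was 3 with a filter of 300 (4.82%), sex (11.018%), females only (12.02%) or the GAPDH ratio (5.32%). It was also 3 with array weights (5.62%), only the 2 groups compared (5.07%), or set and sex (7.65%). With sex, females only, or set and sex the share of all probe sets rose as well. Arrays with poly-A control RNA include only AD-like F1 of its group, so their count is left out. AD-like against young adults had 2 (4.34%). The count became 1 with an offset of 1 (4.44%), a filter of 300 (4.02%) or the set of arrays as a block (5.03%). It was also 1 with the beta-actin ratio (4.92%), array weights (3.73%) or the methods' t-test (3.58%). In females only (8.35%) or with set and sex (5.89%) it was 3. Age by sex had 1, which became 0 with the GAPDH ratio or array weights and 2 on arrays with poly-A control RNA. The label number as a replicate block gave 9 for AD-like against old, beside 15.5% of all kept probe sets, 7 for AD-like against young adult, beside 12.7%, 2 for old against young adult, beside 6.76%, and 0 for age by sex. With the block CDK5 differed by -1.19 between AD-like and old animals (unadjusted p = 0.014) and MARK3 by -0.56 in age by sex (p = 0.247). Same-numbered animals deviated together (r over 0.1) in 7 of 10 pairs, with a median r of 0.22, beside -0.02 for pairs with other numbers, both pairs with AD-like F2 were negative (-0.25 and -0.27), and 5 of 14 animals correlated best with their own number. These values do not settle whether the numbers pair the animals, and the labels do not say so. The main fit was left without the block, and the counts with the block are given beside it.

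Leaving out each animal gave 0 to 2 for old against young adult (0 without young adult M1 or M2), 0 to 3 for AD-like against old (0 without AD-like F2), 0 to 2 for AD-like against young adult (0 without AD-like F2) and 0 to 1 for age by sex, and 0 after adjustment throughout.

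Directions that turned belonged to differences within the spread. Old against young adult: quantile normalization gave -0.31 for GSK3B 226191_at, -0.19 for CDK5R1 and -0.058 for MAPT. Females only gave 0.067 for GSK3A, -0.044 for GSK3B 226191_at, -0.037 for MARK1 and -0.17 for MARK3. Array weights gave -0.027 for GSK3B 226191_at and -0.010 for MARK3, the replicate block -0.17 for MARK2 203942_s_at, and GSK3A gave 0.056 with the GAPDH and 0.057 with the beta-actin ratio and 0.096 on arrays with poly-A control RNA. AD-like against old: MARK3 was -0.018 with the GAPDH ratio, -0.014 with median centring and -0.085 with the replicate block. CDK5R1 was 0.29 with quantile normalization, 0.022 with the beta-actin ratio, 0.00252 with the set as a block and 0.0096 on arrays with poly-A control RNA, where MAPT was 0.33, and GSK3B 226191_at was 0.13 with quantile normalization. AD-like against young adult: DYRK1A 209033_s_at was 0.00488 with the GAPDH ratio, 0.44 with the beta-actin ratio, 0.43 with the set as a block, 0.13 with set and sex and 0.49 on arrays with poly-A control RNA, where MAPT was 0.51. GSK3B 226191_at was 0.15 with the beta-actin ratio and 0.019 with the set as a block, MARK2 203942_s_at 0.24 with the beta-actin ratio, MARK3 -0.028 in females only and CDK5R1 -0.10 with the replicate block. The cause was not tested. Leaving out 1 animal turned the direction 25 times of 720, between -0.32 and 0.34 for MARK3, -1.09 and 0.23 for MAPT and -1.18 and 0.21 for DYRK1A 209033_s_at in AD-like against old animals. Ranges in AD-like against young adult animals were -0.88 to 0.43 for MAPT, -0.71 to 0.67 for DYRK1A 209033_s_at, -1.62 to 0.18 for MARK2 203942_s_at, -0.19 to 0.46 for MARK3 and -0.40 to 0.012 for GSK3B 226191_at. For CDK5R1 in AD-like against old they were -0.084 to 0.033. In old against young adult they were -0.14 to 0.51 for MARK2 203942_s_at, -0.12 to 0.14 for GSK3B 226191_at and -0.14 to 0.079 for GSK3A.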
